A study of Mus musculus with 8 samples.

Results

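RNA from WT B16F10 cells kept at 21% oxygen for 24 h was sequenced in 2 libraries, and these 2 of the 8 libraries of the study, chosen by their label, are described here as a resting profile, without a fold change between conditions. B16F10 is a pigmented mouse melanoma line. The genotype label is WT, without an edit of Ppif, the gene of cyclophilin D (CypD). No source says whether the WT cells went through a mock transfection or selection. The other libraries, 2 per group, came from CypD KO cells (Ppif knockout) at 21% oxygen, from Control cells with a stable pcDNA vector at 1% oxygen, and from stable CypD OE cells that overexpress PPIF at 1% oxygen, all for 24 h. All cells were of 1 cultured line, and no source says whether the 2 WT libraries came from separate cultures, so the spread between them may be technical. The values are TPM, the relative level of a gene's transcripts corrected for their length, which sum to the same total in every library, for 55414 genes, of which 54749 (98.8%) were found in the GENCODE annotation of GRCm39. A gene was counted as on when it had at least 1 TPM in both WT libraries, as listed at 0 when both values were 0, and as low otherwise. Levels are given below as the value of replicate 1 followed by that of replicate 2.

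Melanocytes make the pigment melanin inside melanosomes, organelles related to lysosomes. The transcription factor MITF, which acts with SOX10 and PAX3, drives the genes for the melanin enzymes and for the proteins that build and carry melanosomes. Melanoma cells can keep this programme or lose it for a dedifferentiated state with high AXL, SOX9, EGFR and matrix genes, so the relative levels of both sets are used to describe the lineage state of a melanoma line.

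The labelled cell type was first checked against its markers. Tyrp1, which encodes a melanin enzyme, was at 7949 and 7997 TPM and ranked 8 among all genes and 6 among protein-coding genes. Dct, the dopachrome tautomerase gene, was at 3346 and 3286.5 TPM, Pmel, which encodes the fibril protein of the melanosome, at 2375 and 2309 TPM, and Mlana, which encodes a melanosomal membrane protein, at 1540.1 and 1511 TPM. All 4 markers were therefore on in both libraries and lay among the 79 most abundant genes. Together with Tyr, the gene of tyrosinase, they held 1.52% and 1.51% of all TPM.

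Of the 55414 genes, 11834 (21.4%) were on, 7781 (14.0%) were low and 35799 (64.6%) were listed at 0. Among the 21627 protein-coding genes, 10613 (49.1%) were on, 3228 (14.9%) low and 7786 (36.0%) at 0. The share of 49.1% is the reference for the counts of lists and families below. The genes that were on had a median of 21.4 TPM. Abundance was concentrated, since 144 genes with a mean of 1000 TPM or more held 39.7% of all TPM, and 1474 genes between 100 and 1000 TPM held a further 34.5%. At the other end, 3650 genes between 1 and 10 TPM held 1.69%. Only 306 genes were needed to reach 50% of TPM and 4291 to reach 90%. TPM holds no read total, and the number of fragments was estimated from the spacing of low values. At an effective length of 1000 bases, each fragment added 0.090 TPM in replicate 1 and 0.0975 TPM in replicate 2, which corresponds to approximately 27500000 and 25700000 fragments on genes. A value of 0 on such a gene leaves room for up to 0.27 and 0.293 TPM, the level of 3 fragments, counting error only.

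The most abundant transcripts came from mitochondrial DNA, from protein synthesis, from iron storage and from pigment production. The 10 most abundant genes held 13.8% and 14.0% of TPM (13.9% ± 0.12, SD, n = 2). The share was 10.3% without genes under 300 bases and 6.05% without mitochondrial genes and their copies on chromosome 1 described below. The 13 protein genes of mitochondrial DNA held 11.0% and 11.1%, and the 91 genes named as cytosolic ribosomal proteins held 12% and 11.7%. The first gene in the order was mt-Atp8, a subunit gene of ATP synthase, at 48048 and 46905 TPM. Its annotated transcript has 204 bases, while the fragments had an estimated length of 204 and 198 bases, so very few fragment positions fit on it and its TPM rests on a very small effective length. Without mt-Atp8 the other 12 mitochondrial protein genes held 6.15% and 6.38%.

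After mt-Atp8 the mitochondrial genes mt-Cytb (complex III) and mt-Co1 (complex IV) followed at 11543 and 12059 TPM and at 10748 and 10934 TPM. Eef1a1, the translation elongation factor that brings tRNA to the ribosome, was the most abundant protein-coding nuclear gene at 10292 and 10217 TPM, and Tyrp1 was the next. Ftl1 and Fth1, the ferritin light and heavy chain genes, were at 5684 and 5296 TPM and at 3273 and 3196 TPM. Gapdh, a glycolytic enzyme gene, was at 4648 and 4515 TPM, and Ppia, which encodes cyclophilin A, at 4258 and 4317 TPM. Ptma, Hspa8, Npm1, Tmsb10, Hsp90aa1 and Hsp90ab1, which encode prothymosin, chaperones, a nucleolar protein and an actin-binding peptide, lay between 2935 and 4245 TPM. Among the 30 protein-coding genes of highest mean TPM, 2 encode melanin enzymes, namely Tyrp1 and Dct. All 19 housekeeping genes of a reference list were on, among them Eno1 at 2382 and 2281 TPM, Actb at 2577 and 2435 TPM and Pkm at 1334 and 1342 TPM. The largest relative difference between the libraries in this list was that of Tbp, at 41.7 and 49.1 TPM.

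**Figure D1:**
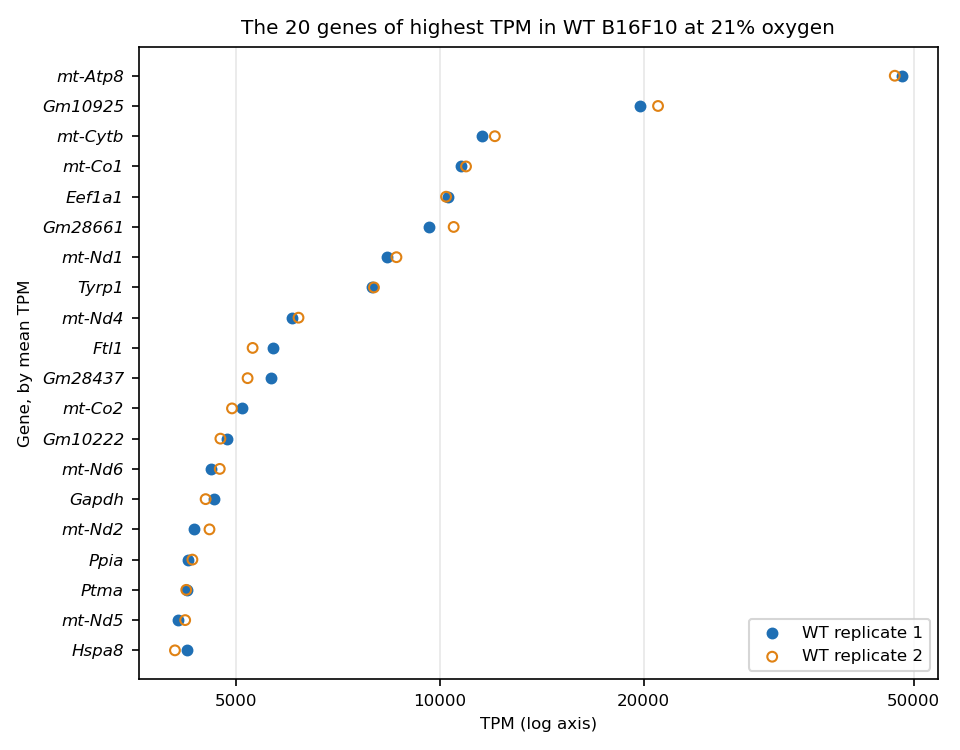
TPM (log axis) of the 20 genes of highest mean TPM in WT cells, with a filled point for replicate 1 and an open circle for replicate 2. The list runs from mt-Atp8 at 48048 and 46905 TPM to Hspa8 at 4239 and 4068 TPM, and the only pigment gene in it is Tyrp1.

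Among the 20 most abundant genes, 4 were annotated as unprocessed pseudogenes, namely Gm10925, Gm28661, Gm28437 and Gm10222. An alignment to mitochondrial DNA showed that 8 of the 14 unprocessed pseudogenes that were on match it with at least 95% identity over at least 90% of their length, and 6 of the 8 lie together on the minus strand of chromosome 1, at chr1:24650616-24655278 of GRCm39. In this stretch Gm28661, Gm10925, Gm28437, Gm10222 and Gm28439 had 0 mismatches to mt-Co2, mt-Atp6, mt-Co3, mt-Nd4l and mt-Nd4 over their whole length. Fragments that lie inside such a copy cannot be told apart from fragments of the mitochondrial gene, and RSEM divides them between both. The 6 copies held 4.10% and 4.28% of TPM. Gm10925 was at 19722 and 20990.3 TPM against 3088 and 3201 TPM for mt-Atp6, so that 86.5% and 86.8% of the sum was assigned to the copy. For mt-Co2 the share assigned to Gm28661 was 65.4% and 68.0%, and for mt-Nd4l the share assigned to Gm10222 was 66.6% and 64.2%.

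The agreement between the libraries was read for each gene, its copy and their sum. mt-Co3, a subunit gene of complex IV, was at 857 and 1367 TPM, a difference of 0.67 on the log2(TPM + 1) scale (replicate 2 minus replicate 1), while its copy Gm28437 was at 5641 and 5206 TPM, a difference of -0.12. Their sum was 6499 and 6573.5 TPM, a difference of 0.02. For this pair the sum was steadier than either part, and for mt-Nd4l with Gm10222 it differed by 0.02 against 0.12 for the gene. In the other exact pairs it was not steadier than the mitochondrial gene, with sums against genes of 0.06 and -0.05 for mt-Co2, 0.08 and 0.05 for mt-Atp6 and 0.07 and 0.03 for mt-Nd4. The levels of single mitochondrial genes with such a copy are uncertain. mt-Cytb, mt-Nd1 and mt-Nd5 have no copy among those 6. Of these, mt-Nd1 was at 8359.9 and 8632 TPM and mt-Nd5 at 4104 and 4212 TPM.

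The 5 genes below carry the pigment programme, and the 250 bases upstream of the annotated start of their canonical transcripts are shown because 4 of them hold the M-box TCATGTG, the string bound by MITF in pigment gene promoters. The sequences are from GRCm39, written 5′ to 3′ on the strand of the gene, and capitals mark TCATGTG or its reverse complement. Tyr lies on the minus strand (chr7:87142721-87142970), Tyrp1 on the plus strand (chr4:80752192-80752441), Dct on the minus strand (chr14:118289598-118289847), Mlana on the plus strand (chr19:29674974-29675223) and Pmel on the plus strand (chr10:128541871-128542120).
Tyr: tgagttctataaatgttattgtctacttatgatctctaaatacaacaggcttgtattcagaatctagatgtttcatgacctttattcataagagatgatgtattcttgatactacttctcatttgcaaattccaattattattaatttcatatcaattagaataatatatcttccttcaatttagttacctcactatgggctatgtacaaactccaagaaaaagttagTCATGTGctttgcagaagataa
Tyrp1: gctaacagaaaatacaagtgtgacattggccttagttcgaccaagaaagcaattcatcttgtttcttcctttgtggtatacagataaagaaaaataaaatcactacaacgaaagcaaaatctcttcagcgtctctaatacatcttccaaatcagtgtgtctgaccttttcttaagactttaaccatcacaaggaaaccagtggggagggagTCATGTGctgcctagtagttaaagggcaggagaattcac
Dct: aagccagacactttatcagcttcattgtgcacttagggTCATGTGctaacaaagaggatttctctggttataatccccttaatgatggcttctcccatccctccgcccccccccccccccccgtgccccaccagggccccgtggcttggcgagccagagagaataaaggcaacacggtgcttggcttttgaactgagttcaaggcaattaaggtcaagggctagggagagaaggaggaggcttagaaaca
Mlana: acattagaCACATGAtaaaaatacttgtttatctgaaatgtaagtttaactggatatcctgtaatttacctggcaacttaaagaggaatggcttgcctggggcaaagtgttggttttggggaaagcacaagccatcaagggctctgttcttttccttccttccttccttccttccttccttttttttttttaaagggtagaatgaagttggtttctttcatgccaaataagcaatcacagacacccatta
Pmel: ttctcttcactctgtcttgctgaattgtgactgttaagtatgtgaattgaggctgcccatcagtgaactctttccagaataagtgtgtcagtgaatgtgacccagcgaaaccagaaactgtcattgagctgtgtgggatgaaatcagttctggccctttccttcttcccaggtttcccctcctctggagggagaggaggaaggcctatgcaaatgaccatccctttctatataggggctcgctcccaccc

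In Tyr and Tyrp1 the M-box began 22 and 39 bases before the start. In Dct it began 212 bases and in Mlana 242 bases before it, the last on the reverse strand, and Pmel had none in this window. The level did not follow the presence of the string among these 5 genes, since Tyr was at 37.4 and 41.3 TPM and Pmel at 2375 and 2309 TPM. Of the 48 genes in the melanocyte lineage list, 7 (14.6%) held the M-box on either strand, against 631 of 21614 protein-coding genes (2.92%). They were the 3 enzyme genes, Mlana, Gpr143, Slc7a11 and Mc1r, while none of 11 transcription factor genes and none of 18 genes of melanosome transport held it. Across all protein-coding genes the string was in the window of 1.82% of those on and 4.64% of those at 0. A match is a description of the letters and not a binding site.

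Of the 48 genes of the melanocyte lineage list, 45 were on, and the list held 2.10% and 2.09% of TPM. Among the transcription factors, 9 of 11 were on. Mitf, the regulator of the lineage (chr6:97783950-97998323, plus strand), was at 277 and 281 TPM. Sox10, a neural crest factor that activates Mitf, was at 231 and 239 TPM, and Ets1 at 214 and 218 TPM. The order Mitf, Sox10, Ets1 held in both libraries without overlap. Tfap2a, a further factor of the neural crest, was at 124.3 and 124.5 TPM, and Pax3 at 107 and 110 TPM. The relatives of Mitf were lower, with Tfe3 at 26.4 and 25.9 TPM and Tfeb at 7.08 and 6.61 TPM. Lef1, a nuclear factor of Wnt signalling, reached only 1.00 and 1.3 TPM. Irf4, a pigment gene regulator, was low at 0.06 and 0.15 TPM, and Foxd3, a factor of the early neural crest that restrains Mitf, was listed at 0 in both libraries, where 3 fragments would be 0.127 and 0.138 TPM.

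The 3 melanin enzyme genes were all on but at unequal levels. Tyrp1 (chr4:80752360-80769956, plus strand) had a mean of 7973 ± 34.4 TPM (SD, n = 2), Dct (chr14:118250202-118289656, minus strand) 3316 ± 42.1 TPM and Tyr (chr7:87073979-87142720, minus strand), the gene of the rate-limiting enzyme, 39.3 ± 2.69 TPM. The gaps between these levels were far larger than the spread between the libraries. All 11 genes for melanosome fibrils and membrane proteins were on. Pmel (chr10:128540064-128556107, plus strand) was followed by Gpnmb, a glycoprotein of melanosomes and lysosomes, at 2122 and 2210.1 TPM, and these levels did not overlap. Slc24a5, an ion exchanger of the melanosome, was at 439.0 and 439.5 TPM, and Slc45a2, a transporter needed for melanosomal pH, at 285 and 270.2 TPM. Oca2, a melanosomal chloride channel gene, was at 23.2 and 24.4 TPM and Gpr143, a receptor of the melanosome membrane, at 37.3 and 34.1 TPM. Slc7a11, the cystine transporter whose loss shifts pigment away from pheomelanin, was at 8.82 and 9.69 TPM.

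All 18 genes for melanosome transport and biogenesis were on. The carriers of mature melanosomes were high: Myo5a, the myosin motor, was at 361 and 378 TPM, Mlph, its adaptor, at 205 and 204 TPM, and Rab27a, the GTPase that links both to the organelle, at 124.3 and 121.5 TPM. Rab38, which sorts enzymes to the immature melanosome, was at 324 and 325 TPM, while its relative Rab32 was at 55.5 and 51.2 TPM. The remaining genes, which encode Lyst, a regulator of lysosome-related organelles, and subunits of the sorting complexes BLOC, HPS and AP3, ranged from Bloc1s3 at 2.46 and 2.44 TPM to Dtnbp1 at 89.8 and 88.0 TPM. Of 5 receptors and channels, 4 were on. Mc1r, the melanocortin receptor, was at 54.0 and 54.4 TPM, Trpm1, an ion channel and MITF target, at 150.2 and 144.7 TPM, Erbb3 at 17.1 and 17.6 TPM and Kit, the stem cell factor receptor, at 6.81 and 7.62 TPM. Ednrb, the endothelin receptor of melanocyte precursors, was at 0.02 and 0 TPM.

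**Figure D2:**
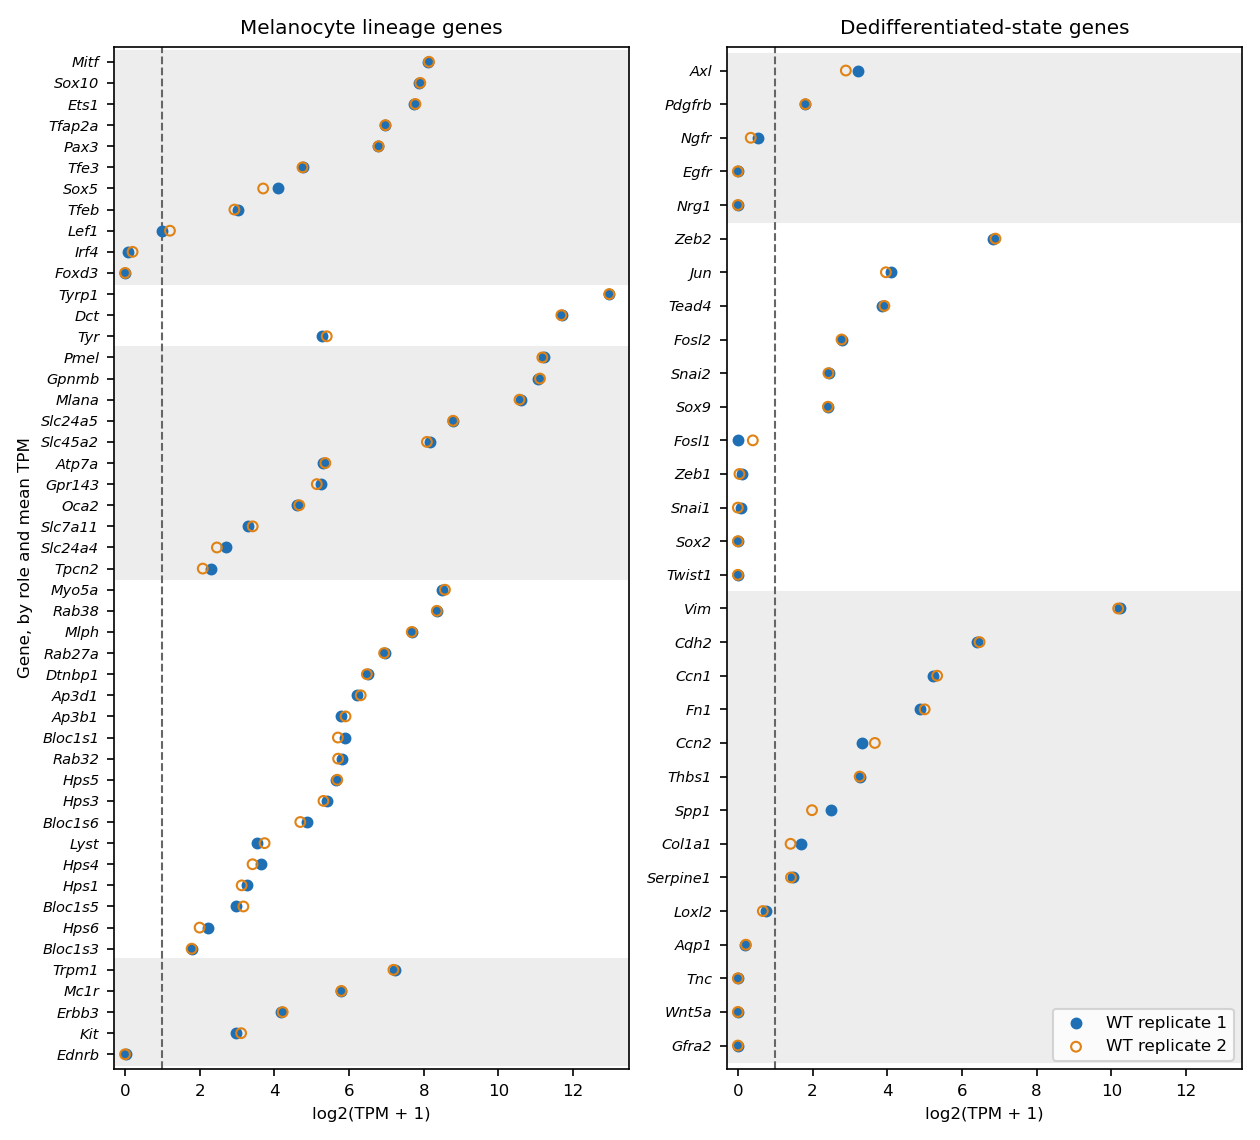
Level of each gene of the melanocyte lineage list (left) and of the dedifferentiated state list (right) as log2(TPM + 1), with a filled point for WT replicate 1 and an open circle for replicate 2. Shaded bands separate the roles and the dashed line marks 1 TPM. On the left 45 of 48 genes lie at or right of the line in both libraries, on the right 17 of 30.

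Beside 49.1% of all protein-coding genes, genes used to mark the dedifferentiated melanoma state were on in 17 of 30 cases. The on genes were led by Vim, the intermediate filament vimentin, at 1199 and 1163 TPM, Zeb2, a zinc finger factor also found in pigmented melanocytes, at 113 and 118 TPM, and Cdh2, which encodes N-cadherin, at 84.3 and 87.8 TPM. Axl, the receptor kinase that gives this state its usual name, was at 8.22 and 6.42 TPM, and Sox9, the factor that opposes Sox10 in this state, at 4.35 and 4.32 TPM. Egfr, Nrg1, Sox2, Twist1, Tnc, Wnt5a and Gfra2 were listed at 0 in both libraries. Zeb1, the counterpart of Zeb2, was at 0.07 and 0.03 TPM, Snai1 at 0.06 and 0 TPM and Ngfr, a marker of neural crest-like cells, at 0.44 and 0.27 TPM. Fn1, the fibronectin gene, was at 28.4 and 31.1 TPM, and Ccn1 and Ccn2, targets of YAP, were at 36.7 and 39.4 TPM and at 9.01 and 11.7 TPM. The count depends on the threshold, since 11 of the 30 genes reached 5 TPM in both libraries. None of 15 epithelial genes was on. Cdh1, which encodes E-cadherin, was at 0.18 and 0.14 TPM, and Epcam, Krt8, Krt18, Cldn3, Cldn4, Cldn7 and Ocln were listed at 0.

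Of 13 further melanoma and neural crest markers, 11 were on. Met, the receptor of hepatocyte growth factor, was at 239.6 and 245.5 TPM, Mcam, an adhesion molecule of melanoma, at 109 and 107 TPM, and Tspan10, a tetraspanin of pigment cells, at 136 and 140.3 TPM. S100b, the routine tissue marker of melanoma, was at 24.9 and 23.2 TPM. Mia was at 0 and 0.39 TPM and Bcl2a1b was listed at 0. Cdk2, which MITF activates in melanocytes, was at 265.7 and 266.1 TPM.

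Genes of the division cycle were on without exception (29 of 29). Cdk1, the mitotic kinase, was at 488 and 496.5 TPM, Rrm2, which supplies deoxynucleotides, at 543 and 556 TPM, Pcna at 467 and 461 TPM and Mki67, the routine proliferation marker, at 186 and 196.5 TPM. All 3 D-type cyclins were on, with Ccnd2 at 208 and 212 TPM above Ccnd3 at 140.3 and 139.5 TPM and Ccnd1 at 135 and 136 TPM. Cdk4 at 440.2 and 405 TPM exceeded Cdk6 at 7.16 and 7.26 TPM.

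The inhibitors of these kinases split. Cdkn2a (chr4:89192708-89212890, minus strand), which encodes p16 and p19ARF, and its neighbour Cdkn2b (chr4:89223204-89229276, minus strand), which encodes p15, were listed at 0 in both libraries, and Cdkn2a was at 0 in all 8 libraries of the series. For Cdkn2a 3 fragments would be 0.416 and 0.447 TPM. The remaining INK4 genes were on, with Cdkn2c at 52.6 and 43.5 TPM and Cdkn2d at 23.6 and 24.2 TPM. Cdkn1a, which encodes p21, was at 165 and 154 TPM, and Cdkn1b, which encodes p27, at 48.6 and 50.2 TPM. The 8 other genes of the list were all on, among them Trp53 at 136 and 133 TPM and its antagonist Mdm2 at 115 and 122 TPM.

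The neighbourhood of Cdkn2a was therefore examined. Mtap, a salvage enzyme gene (chr4:89055359-89099319) was at 301.5 and 305.9 TPM. Gm12607, a pseudogene within Mtap, was at 0.62 and 0 TPM. Past the end of Mtap the next 25 annotated genes, 5 of them protein-coding, were all listed at 0. They ran from 89101218 to 91598206 of chromosome 4 (2497 kb), and Gm12669 beyond them was at 6.59 and 8.07 TPM. On the other side of Mtap, the lncRNA genes Gm12602, Gm49891 and Gm49890 were on, at 3.56 and 6.2, 2.86 and 3.25, and 15.7 and 17.9 TPM. Farther on that side Klhl9 was at 49.3 and 50.2 TPM, with the type I interferon genes around it at or near 0. Runs of at least 25 consecutive genes listed at 0 numbered 145 of 8639 runs across the genome. A lost gene and a silent gene cannot be told apart in these values.

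In the MAPK pathway, which carries growth signals from RAS through RAF and MEK to ERK, 20 of 21 genes were on. Nras was at 89.0 and 94.9 TPM, Hras at 76.3 and 69.3 TPM and Braf at 26.80 and 26.79 TPM. Mapk3, which encodes ERK1, was at 45.7 and 41.0 TPM. The feedback phosphatase genes Dusp4 and Dusp6 were at 80.2 and 79.9 TPM and at 62.1 and 68.2 TPM, while Dusp5 was low at 0.2 and 0.38 TPM. Of the MYC and telomerase genes 3 of 7 were on. Myc was at 99.1 and 93.4 TPM and its partner Max at 116 and 111 TPM, Mycn was at 0 and 0.04 TPM and Mycl at 0. Tert, the catalytic subunit of telomerase, was at 0.70 and 0.64 TPM. Terc, the RNA subunit, was listed at 0, but at its length 3 fragments would be 1.39 and 1.46 TPM.

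Antigen presentation genes were on in 7 of 18 cases, beside 49.1% of all protein-coding genes. B2m, the invariant chain of MHC class I, was at 281 and 303 TPM, whereas the heavy chains H2-D1 and H2-K1 were at 22.01 and 19.5 TPM and at 2.26 and 3.64 TPM. These chains belong to a family with near-identical copies, so reads may have been divided between members. The peptide transporter genes Tap1 and Tap2 were at 0.66 and 0.46 TPM and at 0, and the immunoproteasome genes Psmb8 and Psmb9 at 0 and at 0.08 and 0.17 TPM. Psmb10, the remaining immunoproteasome subunit, was on at 15.0 and 12.6 TPM. None of 5 class II genes was on, and Ciita, their activator, was listed at 0 in both libraries.

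Genes for interferon and nucleic acid sensing were on in 18 of 21 cases, while none of 21 interferon genes was on. The receptor chains Ifnar1 and Ifnar2 were at 49.8 and 46.4 TPM and at 28.5 and 31.7 TPM, and Ifngr1 and Ifngr2 at 13.2 and 11.8 TPM and at 24.98 and 18.6 TPM. Sting1, the adaptor of cytosolic DNA sensing, was at 32.3 and 30.7 TPM and Cgas, its sensor, at 8.44 and 6.31 TPM. The interferon targets Isg15, Ifit1 and Ifit3 lay between 0.96 and 2.64 TPM. Cxcl10, a chemokine that interferons induce, was at 15.2 and 16.1 TPM. Cd274, which encodes PD-L1, was at 1.60 and 1.43 TPM. Beside 49.1% of all protein-coding genes, 7 of 16 checkpoint and surface ligand genes were on. Pvr at 34.5 and 35.6 TPM, Lgals9 at 32.5 and 35.5 TPM and Cd47, the signal against phagocytosis, at 20.1 and 23.2 TPM were the highest of them.

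Since the study concerns CypD and HIF1, the resting levels of both systems were read. All 10 genes proposed for the permeability transition pore and all 7 cyclophilin genes were on. Ppif was at 50.7 and 49.99 TPM. Its relatives spanned a wide range, from Ppie at 32.5 and 31.1 TPM to Ppia at 4258 and 4317 TPM, with the heat shock protein cofactor gene Ppid at 442 and 429 TPM. The adenine nucleotide carriers Slc25a4 and Slc25a5 were at 379.7 and 361 TPM and at 896 and 879 TPM, and Vdac1, the outer membrane channel gene, at 474.5 and 464 TPM. At 21% oxygen Hif1a was at 139 and 152 TPM, Epas1, which encodes HIF2α, at 5.90 and 5.22 TPM and Arnt, the partner of both, at 37.4 and 34.2 TPM. The oxygen sensor genes Egln1 and Egln2 were at 22.1 and 21.9 TPM and at 29.1 and 26.0 TPM, and Egln3, itself a HIF target, at 1.35 and 1.14 TPM. Among 10 HIF targets, 8 were on, with the glycolytic genes Ldha at 1277 and 1236 TPM and Pgk1 at 1154 and 1095 TPM far above Slc2a1 at 22.1 and 24.97 TPM, Vegfa at 14.0 and 12.6 TPM and Car9 at 3.11 and 2.07 TPM. Adm, the adrenomedullin gene, was at 1.24 and 0.16 TPM and Ankrd37 at 1.01 and 0.80 TPM.

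Gene families were read by name in the annotation, 55 families with 4120 protein-coding genes. In 3 of them every member was on, namely the 78 mitochondrial ribosomal proteins, the 44 initiation factors and the 18 cytosolic aminoacyl tRNA synthetases. In 9 families no member was on, and these held 1821 genes. They were the olfactory (0 of 1194), vomeronasal (0 of 351) and taste receptors (0 of 38), the keratin-associated proteins of hair (0 of 111), the interferons (0 of 21), the Wnt ligands (0 of 19), the UDP glucuronosyltransferases of steroid and drug clearance (0 of 21), the antimicrobial beta-defensins (0 of 42) and the clade A serpins, a family of liver protease inhibitors (0 of 24). Every member of the keratin-associated proteins and of the beta-defensins was listed at 0. The highest olfactory receptor was Olfr889 at 0.69 and 0.83 TPM.

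**Figure D3:**
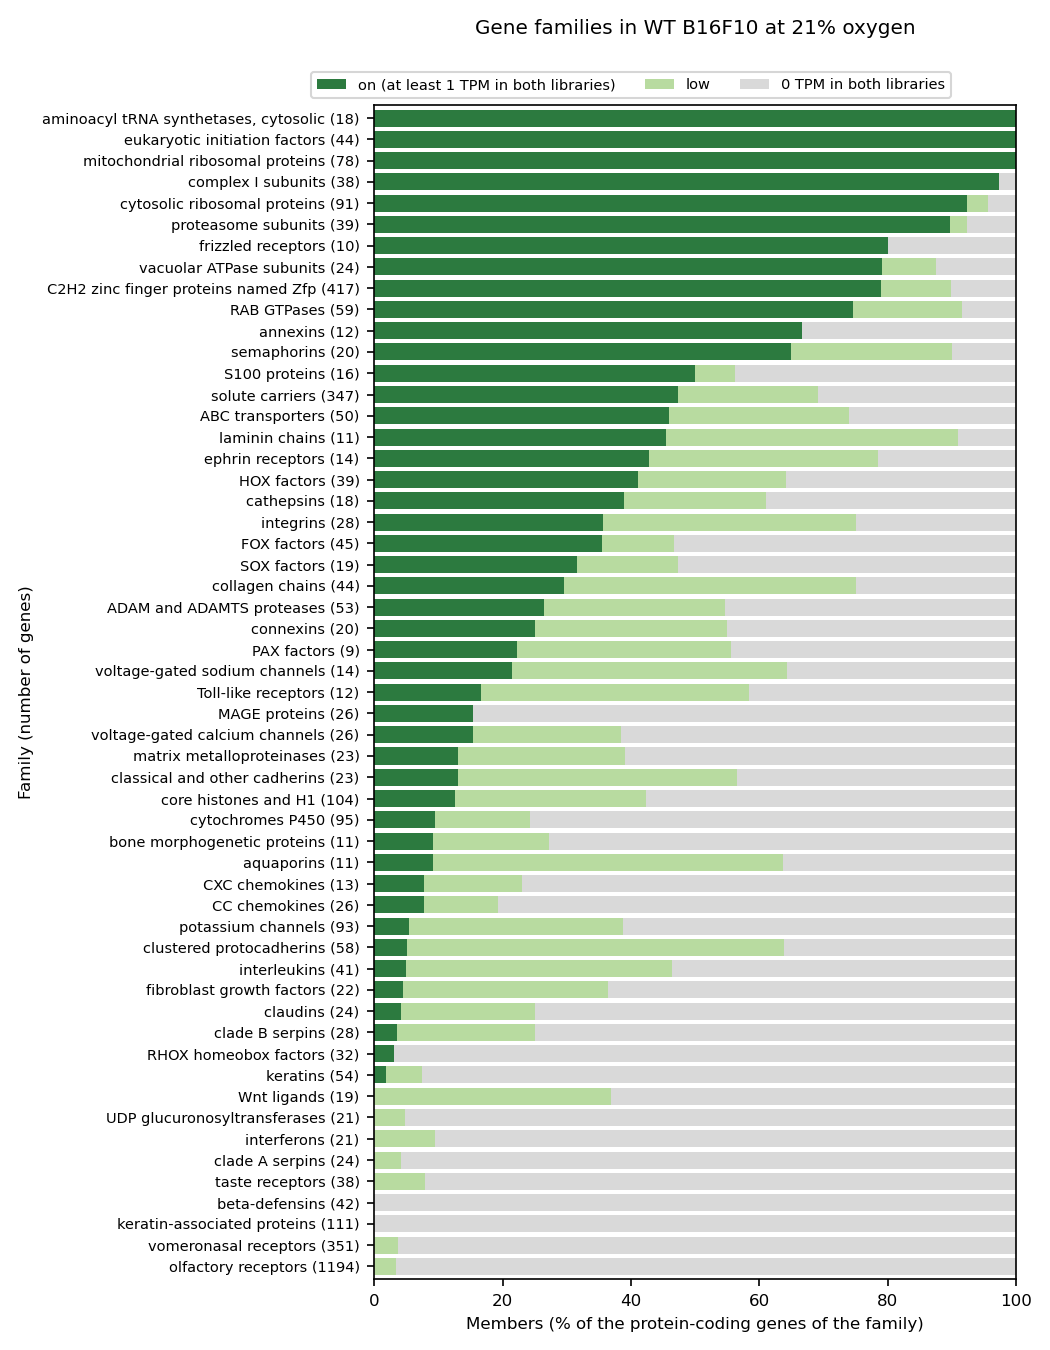
Share of the protein-coding members of each of 55 gene families that were on (dark), low (light) or at 0 TPM (grey) in both WT libraries, with the number of genes in parentheses. The families run from those with all members on, such as the 78 mitochondrial ribosomal proteins, to 9 with no member on.

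Other basic families were on almost throughout. Of the cytosolic ribosomal proteins 84 of 91 were on. Those not on were the paralogs Rpl3l, Rpl10l, Rpl39l and Rps4l and the gene models Rps23rg1, Gm3550 and Gm5244. Of the complex I subunits encoded in the nucleus 37 of 38 were on, of the proteasome subunits 35 of 39, where the exceptions were Psmb8, Psmb9 and the subunits Psma8 and Psmb11 of testis and thymus. RAB GTPases were on in 44 of 59 cases, led by Rab7 of late endosomes at 563 and 565 TPM, and subunits of the vacuolar ATPase, which acidifies melanosomes and lysosomes, in 19 of 24, led by Atp6v0c at 718 and 739.6 TPM. Cathepsins, the lysosomal proteases, were on in 7 of 18, led by Ctsd at 631 and 593 TPM.

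For the Wnt pathway, ligand and receptor families were both read, and they differed. None of the 19 Wnt ligand genes was on, the highest being Wnt5b at 0.28 and 0.61 TPM, whereas 8 of 10 frizzled receptor genes were, led by Fzd7 at 52.1 and 49.4 TPM. Of 22 fibroblast growth factors 1 was on, Fgf1 at 3.05 and 4.88 TPM, and of 11 bone morphogenetic proteins 1, Bmp1 at 5.45 and 4.71 TPM, which is a procollagen protease rather than a ligand. Of 41 interleukins 2 were on, led by Il18 at 1.5 and 1.55 TPM. Of the axon guidance families 13 of 20 semaphorins (65.0%) and 6 of 14 ephrin receptors (42.9%) were on, against 49.1% of all protein-coding genes. Epha3 led the ephrin receptors at 65.0 and 62.9 TPM. Tlr4, the receptor of bacterial lipopolysaccharide, was at 19.4 and 21.5 TPM and was 1 of 2 Toll-like receptors on.

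Among adhesion and matrix families, Itgb1, the common integrin beta chain, was at 321 and 331 TPM, and 10 of 28 integrins were on. Mmp14, a membrane-bound metalloproteinase, was at 101.5 and 106 TPM, and 3 of 23 matrix metalloproteinases were on. Of the cadherins 3 of 23 were on, led by Cdh2. Krt80 at 15.7 and 16.1 TPM was the 1 keratin on among 54, and Cldn12 at 63.8 and 61.4 TPM the 1 claudin among 24. Among clustered protocadherins, some of which share the last exons within a cluster, 3 of 58 were on and Pcdhgb2 was at 37.6 and 37.1 TPM. Collagens were on in 13 of 44 cases at modest levels, led by Col16a1 at 13.9 and 13.1 TPM.

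Of 39 HOX genes, which record position along the body axis, 16 (41.0%) were on, close to the 49.1% of all protein-coding genes. The clusters differed: 9 of 11 genes of the A cluster (chromosome 6) and 5 of 10 of the B cluster (chromosome 11) were on, 2 of 9 of the D cluster (chromosome 2) and 0 of 9 of the C cluster (chromosome 15), where 7 were listed at 0. Hoxa10 was the highest at 35.6 and 33.1 TPM, followed by Hoxd13 at 24.3 and 22.4 TPM and Hoxb9 at 13.4 and 13.7 TPM. Of 19 SOX genes 6 were on and Sox10 held most of their sum, and of 9 PAX genes 2 were on, led by Pax3. Rhox5 at 21.4 and 19.99 TPM was the 1 gene on among 32 of the reproductive RHOX cluster. Within the list of cancer-testis and reproductive genes 6 of 14 were on, beside 49.1% of all protein-coding genes. The list was not limited to genes restricted to testis and tumours, so a member that is on is not thereby a cancer-testis gene. Among the 6 were the MAGE genes Maged1 at 139 and 134 TPM, Maged2 at 7.58 and 7.38 TPM and Mageh1 at 2.53 and 2.56 TPM. Xlr3a at 31.9 and 29.3 TPM and Pramel12 at 7.47 and 6.08 TPM were also on. Magea1, Magea4, Mageb16, Dazl and Sycp1 were listed at 0. Here Hoxd13 and Hoxb9 were chosen after their values were seen.

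Of 16 imprinted and developmental genes 10 were on, 2 were low and 4 were at 0. Among those on, Igf2bp1, which encodes a fetal RNA-binding protein, was at 40.7 and 41.3 TPM, Hmga2, a chromatin protein, at 74.2 and 74.9 TPM, Lin28b, which blocks let-7 maturation, at 6.17 and 5.91 TPM and Peg10, a gene derived from a retroelement, at 131 and 136 TPM. H19, Meg3, Igf2, a fetal growth factor gene, and Peg3 were listed at 0. Enpp2, which encodes autotaxin, the enzyme that makes lysophosphatidic acid, was at 96.6 and 101 TPM, while the receptor genes Lpar1 and Lpar3 were at 0, Lpar2 at 0.70 and 0.88 TPM and Lpar6 at 3.12 and 2.43 TPM. Xist, the RNA of X inactivation, was at 0.01 and 0.02 TPM, and all 151 protein-coding genes of the Y chromosome were listed at 0. On the X chromosome 336 of 936 protein-coding genes (35.9%) were on.

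Markers of other cell types were looked for in 8 lists. Of 10 macrophage markers 0 were on, and Ptprc, Adgre1, Itgam, Aif1, Tyrobp and C1qa were at 0. Of 10 endothelial markers 0 were on, with Cdh5, Tek and Emcn at 0, Pecam1 at 0.45 and 0.13 TPM, Esam at 0.11 and 0.68 TPM and Vwf, the highest of them, at 1.42 and 0.51 TPM, and of 9 erythroid markers 0. Among 10 lymphocyte markers only Lck, a kinase, was on at 5.98 and 5.20 TPM, with Cd3e, Cd3d and Cd8a at 0. Among 10 keratinocyte markers only Sfn was on, at 1.97 and 1.78 TPM, with Krt5, Krt14 and Trp63 at 0. Of 10 fibroblast markers Col1a2 at 9.03 and 6.87 TPM and Postn at 8.04 and 8.07 TPM were on, with Dcn, Lum and Thy1 at 0. Tubb3 at 59.4 and 57.9 TPM was the 1 neuronal marker on, with Snap25 and Rbfox3 at 0. Schwann cell markers, which share the neural crest origin of melanocytes, were on in 6 of 10 cases, with Pmp22 at 30.9 and 33.7 TPM and Mbp at 16.01 and 13.4 TPM.

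Protein-coding genes held 93.3% and 93.2% of TPM. The 9657 lncRNA genes held 0.758% and 0.750%, and 492 of them (5.09%) were on. The highest were Gas5, a host gene of small nucleolar RNAs, at 862 and 816 TPM and AI506816 at 654 and 645 TPM. The nuclear RNAs Malat1 and Neat1 were at 73.2 and 81.9 TPM and at 81.0 and 77.9 TPM. Processed pseudogenes held 0.669% and 0.675%, with 393 of 9307 on. Small RNA genes could not be read well. Rny1 was at 0 and 115 TPM, Rny3 at 79.2 and 0 TPM and Snord89 at 102 and 0 TPM, genes of 102 to 112 bases that every cell is thought to use. A listed 0 for a gene shorter than a fragment thus says little. Rn7s1 and Rn7s2, RNA genes of the signal recognition particle, had equal values, 40.9 and 33.2 TPM each.

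Genes in the 3 states were also compared by their upstream sequence and gene structure. The observed-to-expected ratio of CpG dinucleotides in the 250 bases upstream of the canonical start had a median of 0.690 in protein-coding genes that were on, 0.372 in low genes and 0.195 in genes at 0. When the 21614 genes were split into 10 equal parts by this ratio, 6.11% of the lowest part were on and 81.5% were at 0, against 84.8% on and 7.91% at 0 in the highest, and the share on rose at every step. The string TATAAA on either strand was upstream of 6.62% of genes on and 19.5% of genes at 0 (12% of all), and the palindrome CACGTG of 8.25% and 3.99% (6.29% of all). On genes had a median of 9 exons and 3521 bases in the canonical transcript, and genes at 0 of 4 exons and 2084 bases, but length enters TPM and the level at which 3 fragments are seen, so it is partly built into the states. Within the melanocyte lineage list the ratio differed by role. The 3 melanin enzyme genes were all on with a median CpG ratio of 0.279, and the 11 genes for melanosome fibrils and membrane proteins had 0.267, whereas the 18 genes of melanosome transport had 0.787. Of all protein-coding genes in the part with ratios from 0.252 to 0.355, 29.9% were on, so many other genes are on at such ratios. These are descriptions across genes, which are not independent replicates. The 7786 protein-coding genes at 0 included 1154 olfactory and 338 vomeronasal receptor genes, so large families weigh on that class.

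**Figure D4:**
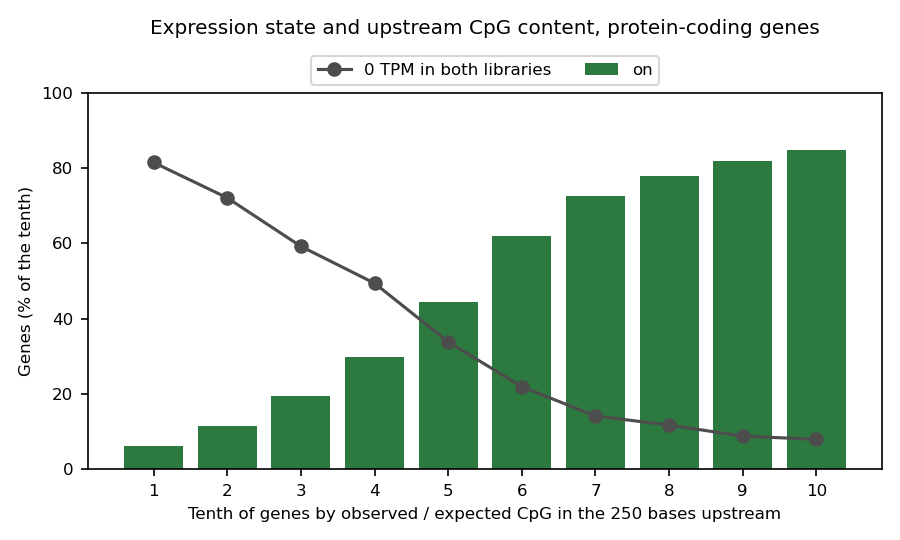
Share of protein-coding genes that were on (bars) or at 0 TPM in both WT libraries (line) in each of 10 equal parts of the genes, ordered by the observed-to-expected CpG ratio of the 250 bases upstream of the start. The share on rises from 6.11% to 84.8% and the share at 0 falls from 81.5% to 7.91%.

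Both libraries gave nearly the same profile. For the 11834 genes that were on, the median absolute difference between the libraries was 0.09 on the log2(TPM + 1) scale and the 90th percentile 0.33. On this scale 52 genes differed by more than 1. In TPM + 1, 89.6% of genes differed by less than 25%, a measure that understates the relative difference of low genes. Pearson's r across the 11834 genes, which share libraries and are not independent, was 0.994. The replicate pairs of the other groups had median differences of 0.09 as well. The difference was smaller at higher levels up to 1000 TPM. In genes of at least 600 bases the median difference on the log2(TPM) scale was 0.27 between 1 and 3 TPM, where counting error alone would give 0.20, 0.03 between 300 and 1000 TPM, where it would give 0.01, and 0.04 at 1000 TPM or more, where it would give 0.01. Over 11315 such genes 69.1% differed by less than 2 counting standard errors, a share that fell at every step of level from 84.7% between 1 and 3 TPM to 35.7% at 1000 TPM or more.

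Disagreement concentrated in short genes. Of 94 on genes under 300 bases 15 (16%) differed by more than 1 on the log2(TPM + 1) scale, against 10 of 8401 (0.119%) of 3000 bases or more, and the median difference was 0.42 and 0.08. The 10 largest differences among genes with a mean of at least 10 TPM all lay in genes of 101 to 141 bases that were at 0 in 1 library. They included Mir8114 at 0 and 207 TPM, Gm10060 at 146 and 0 TPM and a 105-base gene model that shares the name Ddit3 with the stress-response factor gene, at 68.9 and 0 TPM. The full-length Ddit3 gene, which covers this model, was at 43.1 and 50.2 TPM. In all, 3252 genes were above 0 in 1 library only, with a median of 0.13 TPM in that library, and 922 genes reached 1 TPM in 1 library only.

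**Figure D5:**
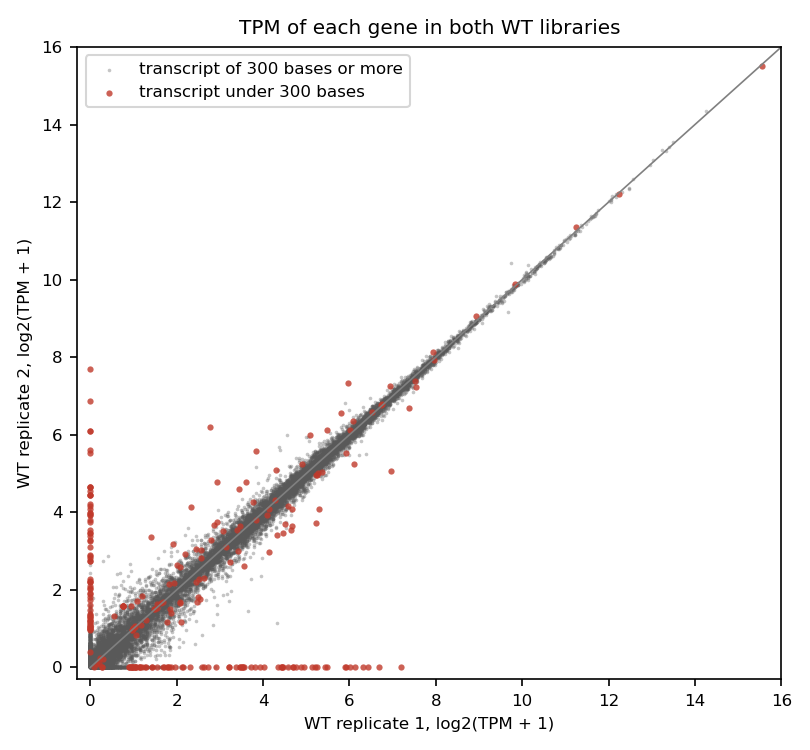
Level of each gene above 0 in a WT library as log2(TPM + 1), replicate 1 against replicate 2, with genes whose longest transcript is under 300 bases in red and the line of equal values in grey. Longer genes lie along the line, while many short genes sit on an axis because they were at 0 in 1 library.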

How the data were processed

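Total RNA libraries were made with ribosomal RNA depletion and sequenced in paired-end reads of 150 bases. Per the submitters' processing notes and the methods, the authors used Cutadapt 3.4 for trimming, STAR 2.7.8a for alignment to GRCm39 and RSEM 1.3.1 for expression per gene, and they deposited the TPM values used here, written to 2 decimals. The deposited notes also name DESeq2 1.26.0 for comparisons, which were not used here.

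Only the 2 WT columns were described, and 0 columns were left without a sample. No test was run. States were set by 1 TPM in both libraries, and differences were taken as log2(TPM + 1), which understates the changes of low genes. The length of fragments and the TPM each added were fitted to low values of transcripts of 600 to 3000 bases, where 85.1% and 86.1% of values lay within 0.15 of a whole number, and the procedure was tested on simulated data. Coordinates, biotypes and lengths came from GENCODE vM39, pseudogenes were aligned with blastn 2.17.0, and Python 3.11.15 with pandas 2.3.3 was used. Of the genes in 27 lists, 2 (Prame and Ahsp) were not matched.

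The members, lists and families were chosen with earlier results of these data known. The genes named were those of the lists, the 20 highest of any biotype and 30 highest protein-coding genes, the highest member of each family, the 5 highest of each noncoding class and the 10 largest differences between the libraries. Alternatives were other thresholds, pseudocounts, scalings and gene classes, and leaving out each replicate.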

Additional observations from a re-analysis of the deposited data

How the results depend on the processing

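No paired analysis was possible because no groups were compared. The count of genes on was 12845 at 0.5 TPM, 9503 at 5 TPM and 16363 above 0 in both libraries, within 1.5 times 11834, and 12288 to 12302 with either replicate alone. The share of TPM in the 10 most abundant genes, 13.9%, was 12.7% among protein-coding genes alone, 10.3% without genes under 300 bases and, as an alternative chosen after seeing the data, 6.05% without mitochondrial genes and their chromosome 1 copies, and it ranged from 13.8% to 14.0% with either replicate left out. The protein-coding share, 93.24%, was 93.87% without genes under 300 bases and 98.08% when TPM was multiplied by transcript length, which by construction gives short genes less weight, and 93.16% to 93.32% with either replicate left out. Of the dedifferentiated genes, 11 in place of 17 were on at 5 TPM, 18 at 0.5 TPM and 17 with either replicate left out. The 32 melanin and melanosome genes stayed at 32 on at 0.5 TPM and fell to 28 at 5 TPM. Families without a member on numbered 8 at 0.5 TPM and 13 at 5 TPM against 9. The median replicate difference lay between 0.0775 and 0.107 under other pseudocounts, filters and scalings. Depth limits genes of a few fragments, and fragment length limits genes under 300 bases.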

Other observations

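The profile of abundant genes in WT cells was set beside those of the other libraries as a description. Of the 100 most abundant genes in WT, 87 were among the 100 most abundant in CypD KO, 91 in Control and 93 in CypD OE. Of the 11834 genes on in WT, 97.1%, 97.4% and 96.7% were on in these groups. Of the 35799 genes listed at 0 in both WT libraries, 40 were on in CypD KO, 27 in Control and 16 in CypD OE.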
